A study of Rattus norvegicus with 9 samples.

Results

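Cytosolic ribosomal protein transcripts were examined in rat lung through the 64 probe sets of an oligonucleotide array that were annotated to a single symbol of this family, out of 8740 probe sets on the array. Members were taken by symbol alone, as names starting with Rpl or Rps followed by a digit or by the endings of Rpsa and the Rplp stalk proteins, and the Rps6k kinases were left out. They stood for 44 gene symbols, of which 30 were of the large subunit (43 probe sets) and 14 of the small subunit (21 probe sets). The lungs were those of rats breathing on their own with 21% oxygen, called neither exposure below, or with 100% oxygen, called oxygen alone. The other rats were on a mechanical ventilator with 21% oxygen, called ventilation alone, or with 100% oxygen, called both exposures. Each of these 4 groups held 2 samples, a and b. The sources used here give no strain, age, ventilator setting or length of exposure. No label says whether a and b are different animals, and the p-values below therefore reflect no more than the scatter between the samples at hand, part or all of which may be technical.

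Each ribosome is built from a large and a small subunit, and the ribosomal proteins are made in near equal numbers to coat and fold the ribosomal RNA. Their mRNAs are among the most abundant of most tissues, and in mammals they typically start with a C followed by a run of pyrimidines, the 5′ terminal oligopyrimidine tract, through which growth signals passing through mTOR control their translation. In the lung these transcripts come from every cell type, so they mark no particular compartment.

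Sequence around the annotated transcription start is shown for the genes on which the results below turn, from the RefSeq promoter table for rat build GRCr8. Each stretch runs 5′ to 3′ on the strand of the gene, from 40 bases before the start through the following 20 bases. Capitals mark the match searched for, a C followed by at least 4 bases that are each C or T, with that C within 10 bases of the annotated start, on the sense strand only.
Rplp0, chr12:46718371-46718430, minus strand: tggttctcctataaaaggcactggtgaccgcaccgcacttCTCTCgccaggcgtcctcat
Rpl36al1, chr6:93392239-93392298, minus strand: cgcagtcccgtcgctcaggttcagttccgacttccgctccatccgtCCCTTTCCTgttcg
Rpl19, chr10:83519024-83519083, plus strand: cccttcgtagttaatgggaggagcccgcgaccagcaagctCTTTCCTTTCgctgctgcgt
Rpl35a, chr11:81235002-81235061, minus strand: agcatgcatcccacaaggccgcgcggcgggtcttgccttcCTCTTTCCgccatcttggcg
Rpl14, chr8:129163580-129163639, plus strand: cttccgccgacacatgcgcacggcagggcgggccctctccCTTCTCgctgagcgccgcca
Rpl4, chr8:73566437-73566496, plus strand: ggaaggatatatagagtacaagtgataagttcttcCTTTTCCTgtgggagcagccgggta
Rps27l, chr8:76443618-76443677, plus strand: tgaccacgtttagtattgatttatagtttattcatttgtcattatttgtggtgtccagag
Rpsa, chr8:128728839-128728898, plus strand: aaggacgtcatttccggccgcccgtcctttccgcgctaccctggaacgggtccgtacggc
A window was found for 37 of the 44 member genes, and 23 of those 37 (62.2%) held the match, against 7909 of all 27457 windows (28.8%). Rps27l and Rpsa are shown as members without it in this window, and a match is a description of these letters, not a mapped start. Taking the brightest probe set of each gene, the 23 genes with the match had a median log2 change of −0.78 with both exposures against neither and the other 14 one of −0.86. With ventilation at 100% oxygen the medians were −0.67 and −0.66.

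The members were bright on this array. The mean intensity over the 8 samples was above 4000 for 50 probe sets of 36 genes, with the lowest of these at 4577.9, and below it for 14 probe sets of 10 genes, with the highest at 3279.1. This boundary lies in a gap and was set after the values were seen. Of the 100 brightest probe sets of the array 26 were members, and of the 200 brightest 40 were. Of the 64 members 62 passed the filter on low signal, and 1 probe set each of Rpl3l and Rps2-ps1 did not. A further 40 probe sets carried several symbols with a ribosomal protein among them and were not members.

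The arrays differed in their bright end, which touches nearly all of these probe sets. All 9 arrays had a trimmed mean near 801, but the 99th percentile of intensity was 7111 to 8352 on the 3 arrays with both exposures and 9934 to 14547 on the other 6. The control probe set for the 3′ end of cre read 5212 to 6468 on those 3 arrays and 7087 to 12915 on the other 6. A transcript of cre is commonly added to the hybridisation mixture. Sample b with both exposures was run on 2 arrays, which were averaged into 1 sample. A description line for a lot batch, with no lot named, stood on both samples with neither exposure, on sample a with both exposures and on 1 of the 2 arrays of its sample b. Probe sets of lung-defining genes such as the surfactant proteins were present in all samples, with a summed intensity of 44665 and 49680 with both exposures and of 60365 to 97722 elsewhere. Against neither exposure 5 of these 8 genes were lower with both in the test used below, beside 7.02% of all tested probe sets. Sftpd, Pdpn and Aqp5 were not. The means with neither and with both were 21077 and 5758 for Sftpb, 10359 and 8657 for Sftpd, and 1258 and 1413 for Aqp5.

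Ribosomal protein signal was lowest in the lungs that received both mechanical ventilation and 100% oxygen. The median intensity of the 50 bright members was 13482 and 12081 in samples a and b with neither exposure, 9857 and 13026 with oxygen alone, 11661 and 11958 with ventilation alone, and 6647 and 7126 with both. Both samples of the last group lay below the other 6, and sample a with oxygen alone was the lowest of those 6. The members' share of the summed intensity of the array was 4.07% and 4.36% with both exposures and 5.54% to 6.92% in the other samples. Other bright probe sets did much the same. The median of the 130 probe sets among the 200 brightest that belonged to no ribosomal protein was 6578 and 7399 in that group and 9339 to 13681 elsewhere. In whole tissue, fewer cells of a type and less RNA per cell cannot be told apart.

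**Figure D1:**
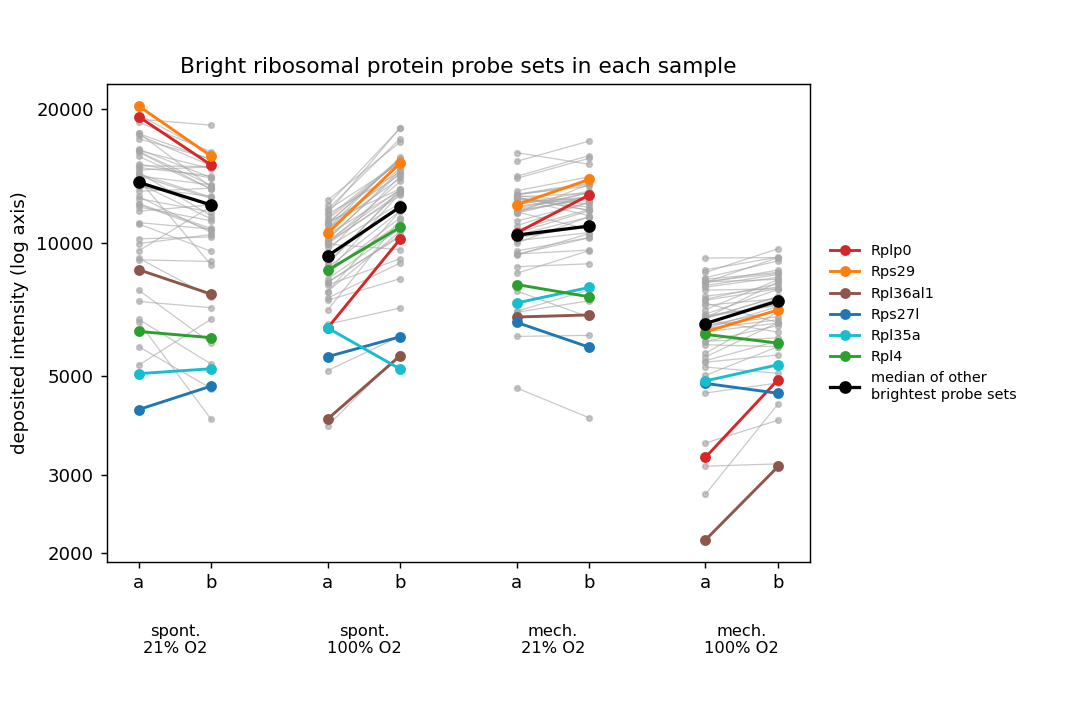
Deposited intensity (log axis) of the 50 bright ribosomal protein probe sets in each of the 8 samples, letters a and b joined within a group only to guide the eye. Grey lines are single probe sets, 6 are coloured and named, and black is the median of the 130 other bright probe sets, which is at 6578 and 7399 with both exposures, low the grey lines are.

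Adding mechanical ventilation to 100% oxygen lowered 49 of the 62 tested members and raised 0 (limma, Benjamini-Hochberg adjusted p under 0.05), where 10.4% of all 5244 tested probe sets were called lower and 16.6% higher. At an unadjusted p under 0.05 the counts were 56 lower and 1 higher. The median log2 change was −0.65 over the members and 0.13 over all tested probe sets. Large and small subunit members moved alike, with medians of −0.64 over 42 probe sets and −0.67 over 20. Adding 100% oxygen to mechanical ventilation lowered 47 members and raised 6, at a median of −0.66. Of all probe sets 14.4% were called lower there and 20.7% higher. These contrasts share the samples with both exposures. Against neither exposure, the lungs with both exposures had 40 members lower and 0 higher, with 7.02% and 7.49% of all probe sets called in those directions, at a median of −0.75. The unadjusted counts there were 41 lower and 2 higher. Both samples with both exposures lay below the other 6 samples in 44 of the 62 tested members, against 10.4% of all tested probe sets.

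These counts rest on few samples and on the fit. With the lot line as a block, ventilation at 100% oxygen lowered 4 members and oxygen in mechanical ventilation 6. Only the group with both exposures held arrays with and without that line. The block therefore rests on the array of its sample b without the line against the other arrays of that group. With no filter on low signal these counts were 6 and 25, and that of both exposures against neither was 9. Ventilation at 100% oxygen called 2 members lower without sample a with both exposures, 14 without sample b of that group and 14 without sample b with oxygen alone. Oxygen in mechanical ventilation called 9 without the first of these samples, and 30 and 11 without samples a and b with ventilation alone. The comparison of both exposures with neither called 10 and 26 without samples a and b with both, and 21 without sample a with neither.

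The brightest probe sets of other genes fell about as often as the bright members, which reach down to dimmer values than they do. Of the 130 other probe sets among the 200 brightest, 101 were lower and 0 higher with ventilation at 100% oxygen, at a median of −0.63, beside 44 of the 50 bright members at −0.66. With oxygen in mechanical ventilation the counts were 96 of 130 at −0.64 and 45 of 50 at −0.69. For both exposures against neither they were 102 of 130 and 40 of 50, with a median of −0.81 in each set. In all, 119 of the 130 others and 42 of the 50 bright members had both of those samples below the other 6. Over 20 bins of the tested probe sets by brightness, the median change of probe sets without a ribosomal protein symbol with ventilation at 100% oxygen was 0.10 to 0.24 in the 17 dimmer bins. It was −0.0013, −0.19 and −0.58 in the 3 brightest, so the fall lay at the bright end. In the brightest bin 41 members had a median of −0.67 beside −0.58 for 187 others. In the next one, between intensities of 4494 and 7516, 9 members had −0.56 beside −0.19 for 251 others. There the members' medians were −0.52 against −0.13 with oxygen in mechanical ventilation and −0.75 against −0.18 for the interaction, while both exposures against neither gave −0.03 against −0.13. Beyond the correction given next, the part of brightness in the members' fall was not tested.

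**Figure D2:**
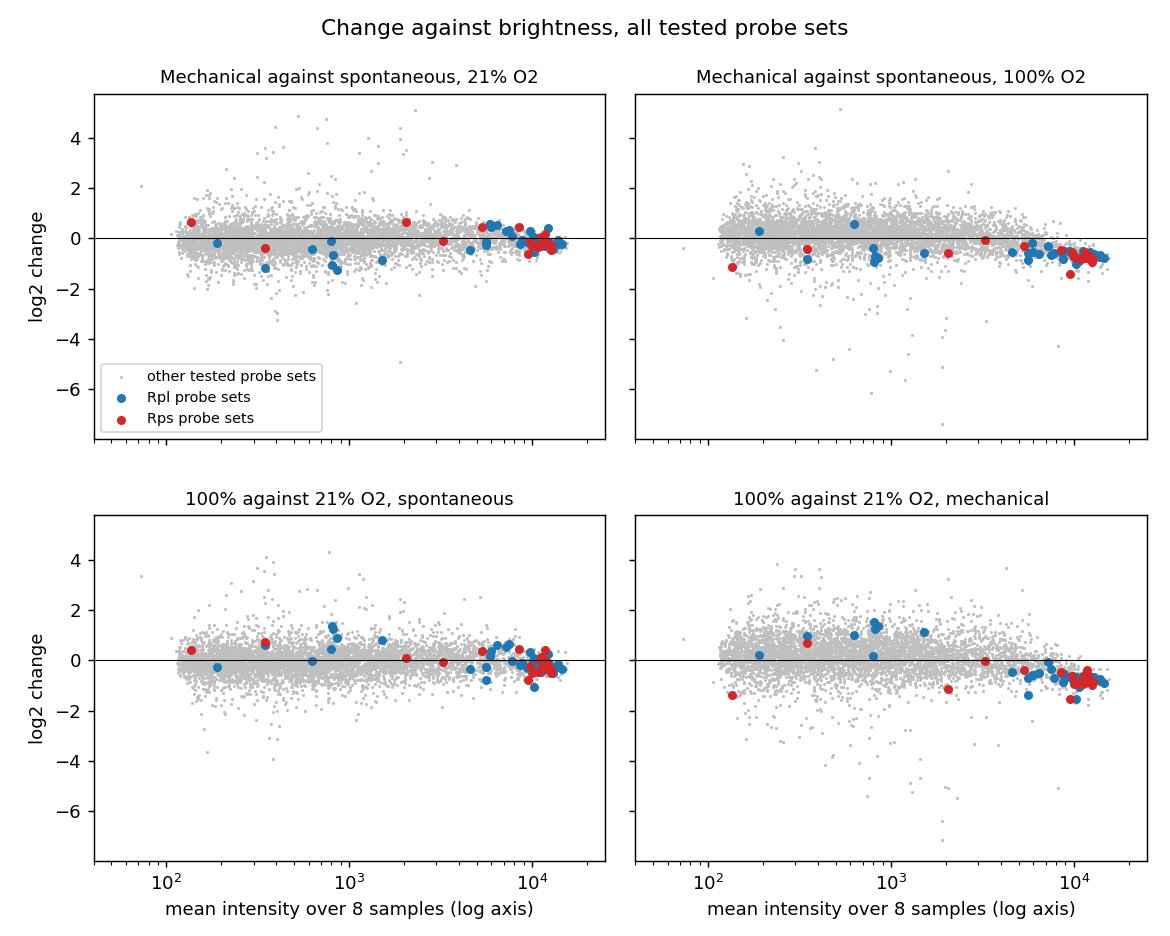
Log2 change of every tested probe set against its mean intensity over the 8 samples (log axis), in 4 comparisons, with large subunit members in blue and small subunit members in red. In the right-hand panels, which both hold the lungs with both exposures, grey and coloured points bend below 0 together at the bright end, where 44 and 45 of the 50 bright members were called lower.

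A correction of the brightness trend, added after these values were seen, left smaller falls. Curves were fitted by cyclic loess on probe sets without a ribosomal protein symbol and applied to all. Of the 62 members 20 were then lower with ventilation at 100% oxygen (9.67% of all probe sets), 33 with oxygen in mechanical ventilation (16.6%) and 32 with both exposures against neither (7.19%). In the same order 0, 5 and 0 members were higher, beside 547, 760 and 285 of all 5244 probe sets. The members' medians were −0.38, −0.35 and −0.48. Under this correction the other 130 bright probe sets had 40, 59 and 78 lower, at medians of −0.30, −0.31 and −0.46. Quantile normalization gave smaller medians still, of −0.20, −0.14 and −0.090 over the members. It called 19, 23 and 14 members lower and 0, 6 and 6 higher in these contrasts. The median over all tested probe sets was 0.13, 0.14 and 0.10 for values as deposited and −0.04, −0.02 and −0.005 after the loess correction.

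**Figure D3:**
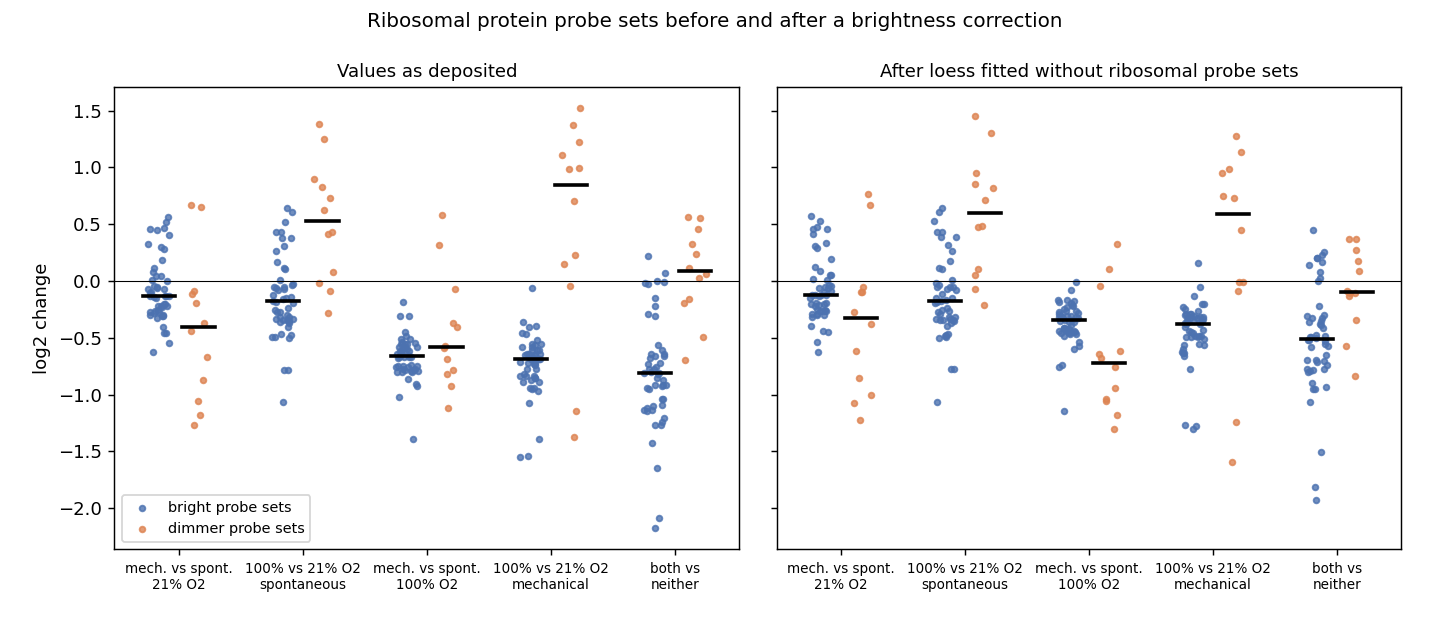
Log2 changes of the 62 tested members in 5 comparisons, for values as deposited (left) and after loess curves fitted without ribosomal probe sets (right). Blue points are the 50 bright members, orange the 12 dimmer ones and black bars the medians, and the bright median for both exposures against neither moves from −0.81 to −0.51.

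Rplp0, the stalk protein that anchors the acidic P proteins and helps recruit elongation factors, had the largest change among the large subunit members for both exposures against neither. Its intensity was 19233 and 14957 with neither exposure, 6426 and 10197 with oxygen alone, 10520 and 12814 with ventilation alone, and 3288 and 4921 with both. The samples with neither exposure were the highest, those with both the lowest, and no other sample overlapped with either pair. With both exposures its mean was 24.0% of the mean with neither, a log2 change of −2.09 ± 0.26 (SE, limma adjusted p = 0.0025). It also fell with oxygen alone, by 1.06 ± 0.26 on the log2 scale (adjusted p = 0.029), and with ventilation at 100% oxygen, by 1.03 ± 0.26 (adjusted p = 0.024). After the brightness correction the change with both exposures was −1.82 (adjusted p = 0.003).

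Rps29, a small zinc-binding protein of the small subunit head, was measured by 2 probe sets that moved the same way. The probe set X59051cds_s_at read 17672 and 13340 with neither exposure, 7051 and 11286 with oxygen alone, 9391 and 10486 with ventilation alone, and 2715 and 4340 with both. The lungs with both exposures were the lowest and those with neither the highest, with no overlap. Its log2 change with both exposures was −2.18 ± 0.27 (adjusted p = 0.0025), and that of rc_AA965264_at was −1.42 ± 0.20 (adjusted p = 0.0038).

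Rpl36al1, annotated as a like gene of ribosomal protein L36a, had intensities of 8698 and 7660 with neither exposure, 4009 and 5568 with oxygen alone, 6805 and 6879 with ventilation alone, and 2143 and 3136 with both. The 4 pairs of samples did not overlap. Its mean with both exposures was 32.3% of that with neither, a log2 change of −1.65 ± 0.21 (adjusted p = 0.0026). Oxygen alone lowered it by a log2 change of −0.78 ± 0.21 (adjusted p = 0.036). Rplp0 and Rpl36al1 were the 2 members that oxygen lowered in spontaneous breathing, where 9.71% of all probe sets were called lower. That count was 0 without sample a of either group compared, 12 without sample b with oxygen alone, and 1 without sample b with neither exposure or either sample with ventilation alone. Both genes carry a match to the pyrimidine run in the sequences shown above.

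Further bright members were lowest with both exposures. Rpl19, singled out after its values were seen, is a large subunit protein at the bridge between subunits. It read 18988 and 18399 with neither exposure, 12156 and 18127 with oxygen alone, 15246 and 16944 with ventilation alone, and 8348 and 9102 with both. The samples with neither exposure were the highest, oxygen alone spanned the values of ventilation alone, and the samples with both lay below all others. Its log2 change with both against neither was −1.10 ± 0.18 (adjusted p = 0.0062). Rpl27 fell by 1.26 ± 0.20 in its brighter probe set (adjusted p = 0.005), and Rps6, the small subunit protein phosphorylated by S6 kinase, fell by 0.87 ± 0.15 in its brighter one (adjusted p = 0.008).

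Rpl3, which reaches into the peptidyl transferase centre, and Rpl11, which joins the large subunit together with Rpl5 and 5S ribosomal RNA, were both lower with both exposures in each of their 2 probe sets. The log2 changes were −0.73 ± 0.15 and −0.91 ± 0.20 for Rpl3, and −1.13 ± 0.17 and −0.56 ± 0.13 for Rpl11. Rpsa, which is also known as a laminin receptor, read 13609 and 11307 with neither exposure, 11128 and 13225 with oxygen alone, 11836 and 12993 with ventilation alone, and 6861 and 7220 with both in the probe set D25224_at. The first 3 groups overlapped and the last did not. Ventilation at 100% oxygen lowered it by a log2 change of −0.79 ± 0.14 (adjusted p = 0.0075). Rpl6 fell by 0.91 ± 0.18 in its brighter probe set in the same contrast (adjusted p = 0.01).

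Few members were called for a single exposure. Ventilation at 21% oxygen raised 3 and lowered 4 of the 62 members, with 7.0% and 7.49% of all probe sets called in those directions, at a median of −0.14 against −0.06 over all. Quantile normalization turned that median to 0.031, with 5 raised and 3 lowered. Oxygen in spontaneous breathing raised 6 and lowered 2, with 7.06% of all probe sets called higher, at a median of −0.10 against −0.05 over all. The median was 0.059 without sample a with oxygen alone, and quantile normalization called 11 higher and 1 lower. Of all probe sets 9.71% were called lower there. These contrasts share the samples with neither exposure. Both of those samples carry the lot line and no sample with a single exposure does. Within these groups, exposure and lot line cannot be told apart. The members' share was above that of the array for probe sets raised by oxygen and below it in the other 3 counts, and these differences were not tested.

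The 3 members that ventilation raised at 21% oxygen were Rpl35a, Rps27l and Rps4x-ps9, all bright. Rpl35a, a large subunit protein mutated in some patients with Diamond-Blackfan anaemia, read 5074 and 5205 with neither exposure, 6434 and 5195 with oxygen alone, 7319 and 7933 with ventilation alone, and 4886 and 5314 with both. The samples with ventilation alone were the highest, and the other 3 groups overlapped. Its mean with ventilation alone was 148% of that with neither, a log2 change of 0.56 ± 0.13 (adjusted p = 0.027).

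Rps27l, a paralog of Rps27, read 4211 and 4758 with neither exposure, 5540 and 6144 with oxygen alone, 6620 and 5819 with ventilation alone, and 4824 and 4583 with both. Both single exposures gave higher values than neither or both, with no overlap between those sets of samples. The log2 change was 0.47 ± 0.12 with ventilation at 21% oxygen (adjusted p = 0.042) and 0.38 ± 0.12 with oxygen in spontaneous breathing (adjusted p = 0.072), so the second was not called. Rps4x-ps9, named as a pseudogene of Rps4x, rose in both, by log2 changes of 0.45 ± 0.11 (adjusted p = 0.034) and 0.43 ± 0.11 (adjusted p = 0.035).

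Rpl4, which lines part of the exit tunnel for the growing peptide, read 6314 and 6114 with neither exposure, 8672 and 10839 with oxygen alone, 8054 and 7557 with ventilation alone, and 6219 and 5944 with both. Each single exposure lay above neither and both, with no overlap. Oxygen in spontaneous breathing raised it by a log2 change of 0.64 ± 0.13 (adjusted p = 0.016), and the change with ventilation at 21% oxygen was 0.33 ± 0.13 (adjusted p = 0.14). Rpl14, a large subunit protein, had 5838 and 4697 with neither exposure, 6553 and 7131 with oxygen alone, 6975 and 7403 with ventilation alone, and 4590 and 4835 with both. Its values rank in the same order as those of Rpl4 for single exposures over neither and both, but neither change from breathing with 21% oxygen was called, at 0.45 ± 0.13 for ventilation (adjusted p = 0.056) and 0.38 ± 0.13 for oxygen (adjusted p = 0.084).

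With both exposures none of these 5 genes was called against neither. The log2 change of both against neither was −0.01 for Rpl35a, 0.07 for Rps27l, −0.02 for Rps4x-ps9, −0.03 for Rpl4 and −0.15 for Rpl14, with SEs of 0.11 to 0.13. The interaction, the change with ventilation at 100% oxygen minus that at 21% oxygen, was called lower in 18 of the 62 members and higher in 0, with 10.5% of all probe sets called lower and 16.9% higher. At an unadjusted p under 0.05 it was 26 lower and 1 higher. Among these genes it was −0.75 ± 0.19 for Rpl35a (adjusted p = 0.021), −0.78 ± 0.18 for Rps27l (adjusted p = 0.014), −0.90 ± 0.16 for Rps4x-ps9 (adjusted p = 0.0049), −0.996 ± 0.18 for Rpl4 (adjusted p = 0.0065) and −0.99 ± 0.19 for Rpl14 (adjusted p = 0.007). After the brightness correction 7 members had a negative call, with 13.2% of all probe sets called lower, and the interaction was −0.77 for Rpl4, −0.82 for Rpl14 and −0.64 for Rps27l. Rpl35a lost its call, at −0.58 (adjusted p = 0.060). The lot line runs nearly along this interaction. With it as a block 0 members were called by limma, with 6 lower and 0 higher at an unadjusted p under 0.05. That block rests on a single array without the line in the group with both exposures, and what the loss of calls reflects was not tested.

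These calls too depended on the fit and on single samples. With the lot line as a block limma called 0 members higher for ventilation at 21% oxygen and 0 for oxygen in spontaneous breathing, with 2 and 6 at an unadjusted p under 0.05, and without a variance trend the first count was also 0. The 3 calls with ventilation at 21% oxygen became 1 without sample a with ventilation alone or without either sample with both exposures, and 0 without sample b with ventilation alone or sample b with neither. The 6 calls with oxygen in spontaneous breathing became 0 without sample b with oxygen alone and 3 without either sample with neither exposure. The 18 interaction calls became 38 without sample a with oxygen alone, 6 without sample a with both exposures or sample b with ventilation alone, and 9 to 11 without each of the other 5.

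Ventilation at 100% oxygen gave a negative change in 10 of the 12 dimmer members tested, as in the bright ones. By their median, the 14 dimmer members otherwise had another order of groups than the bright ones. Their median intensity was 532 and 570 with neither exposure, 846 and 818 with oxygen alone, 340 and 244 with ventilation alone, and 785 and 753 with both. This median was highest with oxygen alone and lowest with ventilation alone, and its values in the 4 groups did not overlap. Several single members had other orders. By group mean, rc_AA892895_i_at of Rps15 and the tested probe set of Rps2-ps1 were highest with ventilation alone and lowest with both exposures. Rpl19l4 and Rplp1l3 were highest with both. With ventilation at 100% oxygen 5 of the 12 that were tested were lower, at a median of −0.58, beside 10.4% of all probe sets. After the brightness correction 7 were lower, at −0.72, beside 9.67%. Of the same 12, oxygen in mechanical ventilation raised 6 and lowered 2, with 20.7% of all probe sets called higher and 14.4% lower. These 6 were all the members raised there. Of the 12, oxygen in spontaneous breathing raised 4, beside 7.06% of all probe sets. Ventilation at 21% oxygen lowered 4, beside 7.49%, and these were all the members lowered there. The members lowered became 0 with the lot line as a block and 3 with no filter, no variance trend or the letter as a block. They were also fewer on leaving out any single sample other than those with oxygen alone. The 6 raised, the 4 raised and the 4 lowered each include both dim probe sets of Rpl21, which share a target.

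**Figure D4:**
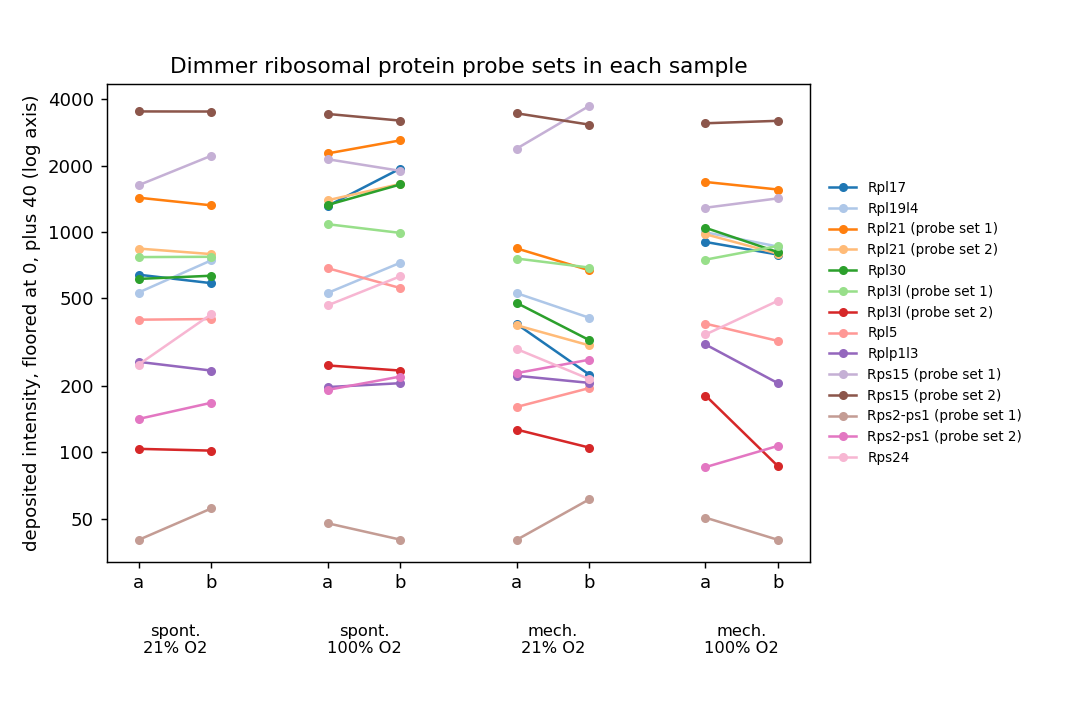
Intensity of the 14 dimmer member probe sets in each sample, floored at 0 and raised by the offset of 40 used in the fit (log axis), with letters a and b joined within a group. Rpl17, Rpl30, Rpl5 and both dimmer probe sets of Rpl21 are higher with 100% than with 21% oxygen in mechanical ventilation, and lie lowest with ventilation alone.

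Rpl17, a large subunit protein near the tunnel exit, read 600 and 546 with neither exposure, 1272 and 1901 with oxygen alone, 343 and 185 with ventilation alone, and 861 and 749 with both. The 4 groups did not overlap. Oxygen raised it by a log2 change of 1.38 ± 0.28 in spontaneous breathing (adjusted p = 0.016) and of 1.52 ± 0.28 in mechanical ventilation (adjusted p = 0.0051), and ventilation at 21% oxygen changed it by −1.06 ± 0.28 (adjusted p = 0.04). Rpl30, which is known to bind its own transcript, read 573 and 593, 1287 and 1604, 437 and 283, and 1005 and 770 in the same order of groups. Its groups did not overlap either, and oxygen raised it by a log2 change of 1.25 ± 0.23 in spontaneous breathing (adjusted p = 0.011) and 1.23 ± 0.23 in mechanical ventilation (adjusted p = 0.0053).

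Rpl5, the partner of Rpl11 on 5S ribosomal RNA, was measured by 1 dim probe set. It read 360 and 363 with neither exposure, 646 and 517 with oxygen alone, 121 and 156 with ventilation alone, and 344 and 280 with both. The samples with ventilation alone were the lowest and those with oxygen alone the highest. Ventilation at 21% oxygen lowered it by a log2 change of −1.18 ± 0.21 (adjusted p = 0.011), and oxygen in mechanical ventilation raised it by 0.98 ± 0.21 (adjusted p = 0.0094). Its partner Rpl11 had a log2 change of −0.84 ± 0.17 in that last contrast in its brighter probe set (adjusted p = 0.0081).

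Rpl21, a large subunit protein, was the member whose probe sets were called in opposite directions in 1 contrast. With oxygen in mechanical ventilation the bright M27905_at changed by −0.56 ± 0.13 on the log2 scale (adjusted p = 0.013), while the dim rc_AA849648_at and rc_AA849648_g_at changed by 1.11 ± 0.15 (adjusted p = 0.0017) and 1.38 ± 0.18 (adjusted p = 0.0014). The last 2 share a target, so they are not independent of each other. The bright probe set read 9430 and 9632 with ventilation alone and 6302 and 6598 with both exposures, and rc_AA849648_at read 803 and 630 against 1648 and 1519. The remaining probe set, X15216cds_s_at, had a change of −0.07 ± 0.15 (adjusted p = 0.76). The 2 dim probe sets had the same order of groups as Rpl17, Rpl30 and Rpl5, highest with oxygen alone and lowest with ventilation alone.

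Of the 15 genes with more than 1 tested probe set, 11 had the same call in all of them for ventilation at 100% oxygen and 10 for both exposures against neither. Rps3, a small subunit protein at the mRNA entry that also acts in DNA repair, was among those that differed. Its probe set X51536cds_at read 9584 and 12088 with neither exposure and 9240 and 9262 with both, and X51536cds_g_at, which has the same target, read 14300 and 12660 against 5428 and 6013. The log2 changes were −0.22 ± 0.17 (adjusted p = 0.44) and −1.25 ± 0.19 (adjusted p = 0.0048), so only the second was called. Rpl26, a large subunit protein, had −0.68 ± 0.14 (adjusted p = 0.016) in 1 probe set and −0.29 ± 0.21 (adjusted p = 0.42) in the other.

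Several members carry the symbol of a copy or pseudogene, and probes for such transcripts can share sequence with the parent gene, so their values are uncertain as to source. Rps2-ps1 read 102 and 128 with neither exposure, 152 and 181 with oxygen alone, 189 and 223 with ventilation alone, and 46 and 67 with both in its tested probe set. The lowest samples were those with both exposures, and the interaction was −1.79 ± 0.37 (adjusted p = 0.0096). Its other probe set stood between −19 and 21 in all samples and was not tested. Rpl19l4 rose with oxygen in mechanical ventilation by 0.99 ± 0.24 on the log2 scale (adjusted p = 0.014).

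Markers of other tissues differed strongly between the groups and are given beside these contrasts. The summed intensity of 12 T lymphocyte marker genes was 33406 and 35101 with ventilation alone and 2094 to 3103 in the other samples, with Cd28 listed at or below 0 in every group. That of 14 skeletal muscle markers was 29214 and 28283 with oxygen alone and 3143 to 9006 elsewhere, with Myh2 and Eno3 at or below 0 with neither exposure and these and Tnni2 with both. That of 9 brown fat markers was 21705 and 23151 with ventilation alone and 8285 to 12138 elsewhere, with Plin1 at or below 0 in every group. Not all of these rose with ventilation alone. Lipe was called lower against neither exposure, with means of 969.7 and 1964.5, and Lep and Lpl had lower means that were not called. Red cell markers, 4 genes, summed to 14146 and 16833 with both exposures and 23277 to 40577 elsewhere. The sum was lowest in the same lungs as the bright members through the bright probe sets of Hbb and Hbb-b1. Against neither exposure, Alas2 and Slc4a1 were not called lower, with means of 6176 and 997 with both and 5918 and 850 with neither. The mean of Alas2 with oxygen alone was 9777. Squamous epithelium markers, 4 genes, summed to 11140 and 11594 with oxygen alone and 1468 to 4538 elsewhere. Krt4, the largest part of the sum with oxygen alone, was at or below 0 in both ventilated groups. Krt5 went the other way, at 669 and 737 with ventilation alone. Its means were 30 with neither exposure, 102 with oxygen alone and 1.6 with both. Neutrophil markers summed to 22067 and 22032 with ventilation alone and 13265 to 19872 elsewhere, and proliferation markers to 17777 and 16770 against 12070 to 13932. The members of both lists differed. From neither exposure to ventilation alone the mean of S100a9 went from 10192 to 10175 and that of RatNP-3b from 19 to 1207. Of 10 tested proliferation genes 5 were called higher there and 0 lower, beside 7.0% and 7.49% of all probe sets. Ccnd1 and Mcm7 had lower means that were not called. The part of these markers in the rise of Rpl35a, Rps27l and Rps4x-ps9 with ventilation alone was not tested. Nor was their part in the high median of the dim probe sets with oxygen alone, or in the low bright members with both exposures. Rpl3l, the counterpart of Rpl3 known from striated muscle, read 1046 and 951 with oxygen alone and 650 to 825 elsewhere, with a change of 0.43 ± 0.15 for oxygen in spontaneous breathing that was not called (adjusted p = 0.079).

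Other parts of the translation machinery were counted from lists of genes. Of 4 tested elongation genes, 2 were lower with ventilation at 100% oxygen, 3 with oxygen in mechanical ventilation and 2 with both exposures against neither, where 10.4%, 14.4% and 7.02% of all tested probe sets were. Eef2, the translocase of the ribosome, is bright like most members. It read 15922 and 12468 with neither exposure, 8310 and 11351 with oxygen alone, 10058 and 10687 with ventilation alone, and 4600 and 5592 with both, and its log2 change of both against neither was −1.47 ± 0.19 (adjusted p = 0.003). Rack1, a scaffold on the small subunit, changed by −0.76 ± 0.14 with ventilation at 100% oxygen (adjusted p = 0.008). Of 19 tested genes on a list for initiation, 3 were lower and 2 higher in that contrast, at a median of 0.12. Of all tested probe sets 10.4% were lower and 16.6% higher. The 2 higher were Eif5b and the kinase Eif2ak3.

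The initiation factor Eif2s1, which inhibits translation when phosphorylated, was like Rpl4 highest with single exposures. It read 1492 and 1439 with neither exposure, 2122 and 2236 with oxygen alone, 2378 and 2550 with ventilation alone, and 1760 and 1565 with both, and its interaction was −1.12 ± 0.17 (adjusted p = 0.003). Of 9 tested genes on a list of mTOR and S6 kinase signalling, 3 were higher with ventilation at 100% oxygen, where 16.6% of all tested probe sets were. That list also held Myc and Max, and the 3 were Mtor, Akt1 and Myc. Mtor itself read 513 and 527 with neither exposure, 240 and 256 with oxygen alone, 256 and 213 with ventilation alone, and 450 and 398 with both, which is the reverse order, with an interaction of 1.72 ± 0.26 (adjusted p = 0.003). Myc, a driver of ribosome production, read 1133 and 1179 with both exposures and 323 to 470 in all other samples.

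Of 12 tested ribosome biogenesis genes 1 was lower and 1 higher with ventilation at 100% oxygen, at a median of 0.21, and 2 were higher with both exposures against neither, where 7.49% of all tested probe sets were. Of 13 tested mitochondrial ribosomal protein genes 1 was lower with ventilation at 100% oxygen and 5 with oxygen in mechanical ventilation. With ventilation at 21% oxygen 5 were higher, with oxygen in spontaneous breathing 3, and 6 had a negative interaction. Over all tested probe sets those shares were 10.4%, 14.4%, 7.0%, 7.06% and 10.5%. With both exposures against neither 1 was higher and 0 lower, beside 7.49% and 7.02% of all tested probe sets.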

How the data were processed

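Per the labels, RNA of rat lung was measured on 9 arrays. Intensity values were taken as deposited, and how the authors made them is not given in the sources used here. Symbols came from the array's annotation, and 63 of 64 members matched the current gene table. The members and all gene lists were chosen with earlier results of these data known.

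After removal of 59 control probe sets, values under 0 were raised to 0 and log2(value + 40) was computed. Sample b with both exposures is the mean of its 2 arrays on this scale, except in the alternatives with the lot line or with either array alone. The alternatives with the lot line took the arrays singly, so both arrays of that sample counted there as separate replicates. The dimmest 40% of probe sets by mean were filtered out, leaving 5244. The group means of 8 samples were compared in limma 3.58.1 (R 4.3.3) with a variance trend and 4 residual degrees of freedom, and Benjamini-Hochberg adjustment ran over every tested probe set of a contrast. The code was tested on simulated data. A change is the fitted difference of log2(value + 40), which understates changes of dim probe sets. Levels in the text are intensities. Brightness, which depends on the probes as well as on the transcript, was used to sort probe sets and not to compare the abundance of genes. With 2 samples in a group, their number limits the precision.

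Named members were up to 4 called genes of largest change in each direction of a contrast, by their brightest probe set, a few members of special interest, those with opposite probe sets and those whose brightest probe set was not tested. From each list of other translation genes up to 3 of smallest p were eligible. Rpl19 and Rpl3l were singled out after their values were seen. Alternatives were quantile and cyclic loess normalization, loess without ribosomal probe sets (added after the values were seen), an offset of 100, no filter, either array of sample b with both exposures, letter block, lot line block, fits within arrays with or without the lot line, no trend, only the groups compared, 1 probe set per gene, and each sample left out. Plots used matplotlib 3.10.9 and Python 3.11.15.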

Additional observations from a re-analysis of the deposited data

Results flagged for a closer look

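In 10 named member genes the effect of ventilation differed between the oxygen levels by the interaction test of the limma fit, and in each the log2 change was lower at 100% oxygen. The difference was −0.99 for Rpl14, −0.96 for Rpl26, −0.75 for Rpl35a, −0.996 for Rpl4, −0.78 for Rpl6, −1.79 for Rps2-ps1, −0.78 for Rps27l, −0.83 for Rps3, −0.90 for Rps4x-ps9 and −0.78 for Rpsa. After loess fitted without ribosomal probe sets, Rpl26, Rpl35a, Rpl6, Rps3 and Rpsa were no longer called (adjusted p = 0.139, 0.060, 0.111, 0.106 and 0.061). The other probe sets of Rpl26, Rps3 and Rpsa had adjusted p-values of 0.073, 0.24 and 0.25 in the values as deposited. The same contrast had 10.5% of all probe sets called lower. With the lot line as a block limma called 0 members, with 6 lower and 0 higher at an unadjusted p under 0.05.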

How the results depend on the processing

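The direction of the members' median held for ventilation at 100% oxygen, oxygen in mechanical ventilation, both exposures against neither and the interaction under every alternative that gave a value, while its size moved. For ventilation at 21% oxygen, quantile normalization gave a median of 0.031 and 5 members higher. Fewer than 3 were higher there with the letter as a replicate block (1), no filter (1), no variance trend (0) or the lot line as a block (0, median −0.36, 0 lower), and 2 were lower with 1 probe set per gene. No shared effect of the letters was seen, with correlations of their deviations between −0.13 and 0.07. These values cannot tell whether the letters pair samples. The letter block left 46 members lower for ventilation at 100% oxygen. Medians under loess fitted without ribosomal probe sets, full cyclic loess and quantile normalization were −0.38, −0.32 and −0.20 for ventilation at 100% oxygen (20, 18 and 19 lower). They were −0.35, −0.27 and −0.14 for oxygen in mechanical ventilation (full loess 25 and quantile 23 lower), and −0.48, −0.39 and −0.090 for both against neither (quantile 14 lower and 6 higher). For the interaction they were −0.22, −0.17 and −0.25 (7 lower under either loess). Full loess and quantile normalization each gave 11 higher, and quantile 1 lower, for oxygen in spontaneous breathing.

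With the lot line as a block the medians were −0.48 for ventilation at 100% oxygen (4 lower), −0.31 for oxygen in spontaneous breathing (0 higher) and −0.069 for the interaction (0 lower). For oxygen in mechanical ventilation it gave 6 lower and 3 higher. Within arrays with or without the lot line, 2 were lower for ventilation at 100% oxygen, at −0.48, and 4 lower and 2 higher for oxygen in mechanical ventilation. These fits have fewer residual degrees of freedom, and without the lot line both exposures are a single array (s2A), assumed to vary like the other groups. They give no value for the other single exposures or the interaction, and fits of only the groups compared give none for the interaction. With no filter, which tests more probe sets, 6 were lower for ventilation at 100% oxygen, 25 for oxygen in mechanical ventilation, 9 for both against neither and 6 for the interaction, and 2 higher and 0 lower for oxygen in spontaneous breathing. Without a variance trend the interaction had 10 lower. The 2 members lower with oxygen in spontaneous breathing became 0 without the trend, with only the s2A array of the averaged sample or with only the groups compared, and the s2B array alone gave 1 positive interaction. The cause was not tested.

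Leaving out each sample gave 2 to 50 lower and medians of −0.84 to −0.46 for ventilation at 100% oxygen, 9 to 50 lower for oxygen in mechanical ventilation, 10 to 40 for both against neither, and 6 to 38 lower, 0 to 1 higher and medians of −0.75 to −0.27 for the interaction. It gave 0 to 3 higher and 2 to 4 lower for ventilation at 21% oxygen, and 0 to 6 higher, 0 to 12 lower and medians of −0.30 to 0.059 for oxygen in spontaneous breathing. Single genes changed sign under quantile normalization, which gave 0.092 for Rps4x-ps9 and 0.013 for Rps6 with ventilation at 100% oxygen and 0.11 for Rps4x-ps9 with oxygen in mechanical ventilation, and under the lot line as a block, which gave 0.079 for the interaction of Rpl6. The 2 samples per group limit every call.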
